A study of Bos taurus with 7 samples.

Results

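The sequences described here are RNA fragments of exactly 10 nt in cow's milk. They were taken by length and by a minimum of 10 reads in at least 1 library, which gave 5259 sequences of 229971 listed in all. Another 18443 sequences of 10 nt stayed under that minimum. One group of libraries was made from 4 fractions of milk, 1 library each, titled MP 12k, MP 35k, MP 70k and MP 100k. What MP and k stand for is not explained in the labels. Milk itself had 3 libraries. All 7 libraries carry the same description, a pasteurized, homogenized, skimmed and filtered retail milk from Holstein cattle (Bos taurus), without treatment or genotype. Total RNA was made into libraries with inserts of about 8 to 35 nt, and the files list the sequences of 8 to 15 nt. Whether the milk libraries are separate cartons or repeats of 1 carton is not recorded, so a p-value here reflects how far the libraries scatter, and that scatter may be technical. Each fraction is a single library without a replicate.

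Milk holds RNA in vesicles, in fat globules and free in the serum, and it also holds ribonucleases, the enzymes that cut RNA. Ribosomal and transfer RNAs, the structural and decoding RNAs of the ribosome, are the usual sources of short fragments in body fluids. A run of 10 bases is too short to be placed in a mammalian genome, because the same letters occur there many times by chance. The relation of a fragment to longer fragments of the same library was therefore described in place of a genome position.

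The sequences that carry the results are shown inside the most abundant longer sequence that holds them, taken over all libraries. Capitals mark the 10-nt sequence, lower case marks the flanking bases of the longer one, and T stands for U as in the deposited lists.
Leading pair, first: gGCCGAGGTGG
Leading pair, second: gGCGGATGTGG
High in 70k and 100k, A-run: aGAAAAAGTCA
High in 70k and 100k, G-run: AGAGGGGGACg
High in 70k and 100k, C-rich: AGCGCCCGGCc
High in 70k and 100k, from the leading 12-nt sequence: gaCTCTTAGCGG
High in 35k: gaGAGAGGTGAG
High in milk, pyrimidine-rich: tCCTCTGTCCA
High in milk, A and T rich: cTTTAACAATA
Low in 70k and 100k, from lysine tRNA: ACGTTGGGCGcc
High in milk, from serine tRNA: gACGAGGTGGC
Near absent from milk: aATCTCCGACT
High in milk 1 alone: tATTTGTTGAA
The RNA names in this list rest on general knowledge of vertebrate RNA sequences and not on an annotation of the files.

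The libraries held 1658606 to 4572650 reads of 8 to 15 nt, and 43157 to 142493 of them were 10 nt long. Of the 10-nt reads, the 5259 sequences held 78.1% to 96.7% in a fraction and 85.4% to 95.9% in a milk library. The widest 95% Wilson interval reached 0.472 points to each side for a share of the 10-nt reads, 0.510 points for a share of the reads of the 5259 sequences and 2.23 points for a share of the sequences present. Such intervals cover counting error only, because the labels name no molecular identifiers that would tell PCR copies apart. At the minimum itself, 316 sequences had a highest count of 10 reads and were kept, and 364 had a highest count of 9 reads and were not.

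Presence was uneven. All 7 libraries shared 483 of the 5259 sequences (9.18%), while 1135 (21.6%) had reads in 1 library. Of those seen in 1 library, 12k had 291, 35k had 567, 70k had 4 and 100k had 18, against 187 in milk 1, 62 in milk 2 and 6 in milk 3. Such a sequence needs 10 reads in its only library, so these counts depend on that minimum. The part of depth was not tested. With the sequences under the minimum included, 70k had 8218 sequences of 10 nt and 100k had 8083, against 4887 in 12k and 6135 in 35k. Milk 1, 2 and 3 had 5347, 5915 and 5400. In the 3 milk libraries together 1269 of the 5259 sequences had no read, and in the 4 fractions together 1316 had none. Sequences with a mean of at least 100 RPM (reads per 1000000 reads of 8 to 15 nt) numbered 21, and all of them occurred in every library. Below a mean of 5 RPM there were 4638 sequences, of which 2.26% occurred in every library.

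Counted by reads, the length class stood higher in the fractions. Reads of 10 nt made up 4.58% of the reads in 12k, 5.57% in 35k, 4.23% in 70k and 3.14% in 100k, against 2.60%, 2.53% and 1.95% in milk 1, 2 and 3. All 4 fractions lay above all 3 milk libraries, with means of 4.38% ± 1.00 (SD over 4 different fractions) and 2.36% ± 0.360 (SD, n = 3). The difference of 2.02 points had an exact permutation p of 0.0571, two-sided, which is the smallest that 4 libraries against 3 allow. Adjusted by Benjamini-Hochberg over the 8 lengths it was 0.457. With distinct sequences in place of reads the difference was -0.0517 points. Most of the surplus of reads in 12k and 35k lay in the pair of sequences described next.

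A single pair of sequences stood far above milk in 2 of the fractions. GCCGAGGTGG had 13762 RPM in 12k, 13219 RPM in 35k, 2358 RPM in 70k and 3006 RPM in 100k, against 966, 538 and 677 RPM in milk 1, 2 and 3. GCGGATGTGG had 12455, 12202, 1477 and 2036 RPM in 12k, 35k, 70k and 100k, against 627, 353 and 455 RPM in milk. For both sequences every fraction lay above every milk library, and 12k and 35k lay far above 70k and 100k. Relative to the milk mean, GCCGAGGTGG was 18.9 times as high in 12k, 18.2 times in 35k, 3.24 times in 70k and 4.13 times in 100k. For GCGGATGTGG these ratios were 26.0, 25.5, 3.09 and 4.26. Some sequences with far fewer reads had higher ratios in 12k and 35k, such as ATCTCCGACT with 77.5 and 128.

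Neither sequence passed the test across all sequences. GCCGAGGTGG had a log2 fold change of 3.38 (SE 0.87) between fractions and milk and an edgeR adjusted p of 0.0850. GCGGATGTGG had a log2 fold change of 3.77 (SE 0.94) and also an edgeR adjusted p of 0.0850. With DESeq2 the adjusted p was 0.00478 for the first and 0.00254 for the second. Over 14 alternatives the adjusted p of the first ranged from 0.00336 to 0.410 and that of the second from 0.00241 to 0.410, and both log2 fold changes stayed positive.

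The pair is alike in letters and in level. Counted from 1 at the 5′ end, the second differs from the first by C3G and G6T. The reads of the second per read of the first were 0.905 in 12k and 0.923 in 35k, against 0.649, 0.656 and 0.672 in milk 1, 2 and 3. The 70k and 100k fractions had 0.626 and 0.677, next to milk. Together the pair held 57.3% of the 10-nt reads of 12k and 45.7% of those of 35k. In 70k and 100k it held 9.07% and 16.1%, and in milk 1, 2 and 3 it held 6.12%, 3.53% and 5.82%.

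Without the pair the share of 10-nt reads was 1.96% in 12k, 3.02% in 35k, 3.84% in 70k and 2.63% in 100k, against 2.44%, 2.44% and 1.83% in milk. The 12k fraction then lay within the milk range, and the difference between fractions and milk was 0.627 points (exact permutation test, two-sided, p = 0.229). The pair's own surplus over milk, 2.50 points, exceeded the whole surplus of 12k, 2.22 points. In 35k it amounted to 75.5% of the surplus, in 100k to 49.2% and in 70k to 14.1%. This removal was chosen after the values were seen.

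Longer sequences did not hold the pair in larger number. The 11-nt form with 1 more G at the 5′ end had 4048 reads in 12k and 5363 reads in 35k, below the 31786 and 33845 reads of GCCGAGGTGG itself. In all, 13 longer sequences ended in GCCGAGGTGG and had 12604 reads over the 7 libraries, against 82096 reads of the 10-nt form. Of the shorter forms with the same 3′ end, CCGAGGTGG had 8039 reads and the 8-nt form had 94. The 10-nt form thus outnumbered both neighbours at that end. GCGGATGTGG had 70843 reads, while the 9 longer sequences with its 3′ end had 1933 and the 17 with its 5′ end had 1030. Its 9-nt form CGGATGTGG had 2004 reads.

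The share held by the leading sequences differed between libraries. The 10 leading sequences of each library held 62.4% of its 10-nt reads in 12k, 53.0% in 35k, 35.3% in 70k and 37.3% in 100k, against 18.1%, 15.9% and 18.0% in milk 1, 2 and 3. All fractions lay above all milk libraries. The 100 leading sequences held 53.2% to 73.4% in the fractions and 38.3% to 42.3% in milk. To reach 50% of the 10-nt reads took 2 sequences in 12k, 5 in 35k and 65 each in 70k and 100k, against 216, 227 and 181 in milk 1, 2 and 3. For reads of 11 nt, the neighbouring length, the 10 leading sequences held 26.6% to 41.7% in the fractions and 32.9% to 48.0% in milk, so that the groups overlapped there.

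Among the 21 sequences with a mean of at least 100 RPM, 10 had both 70k and 100k above the other 5 libraries and 4 had both 12k and 35k above the other 5. Over all tested sequences these patterns held in 16.7% and 8.57%. In 4 all milk libraries lay above all fractions (background 10.2%), and in 3 all fractions lay above all milk libraries (background 7.53%). Both sequences of the pair and AGCGGTCGGC are in 2 of these sets, and GAGCCGGGCG, GCCCTGTAAT and GAGGGGAAGG are in none. These counts describe the libraries and were not tested. The 21 passed a minimum on mean RPM, which a sequence can reach through the libraries where it is high. All tested sequences passed a minimum on reads in at least 3 libraries instead, so the backgrounds are not like for like. The 70k and 100k fractions also resembled each other over the sequences with enough reads for the test. Across these 732 sequences Spearman's rho of RPM was 0.826 between 70k and 100k and 0.495 between 12k and 35k. Sequences are not independent replicates, and these libraries also differ in depth. Between 12k or 35k and 70k or 100k rho was 0.139 to 0.206.

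In the sequences high in 70k and 100k both fractions exceeded every other library, while the order of the remaining libraries varied. GAAAAAGTCA had 466 RPM in 12k, 459.7 RPM in 35k, 3272 RPM in 70k and 2229.9 RPM in 100k, against 749, 126 and 80.3 RPM in milk 1, 2 and 3. It was the sequence with the most 10-nt reads in 70k. The 70k and 100k values exceeded every other library, and milk 1 exceeded 12k and 35k. AGAGGGGGAC had 173, 255, 2020.3 and 1269 RPM in 12k, 35k, 70k and 100k, against 375, 71.6 and 51.0 RPM in milk. AGCGCCCGGC had 109, 132, 1643 and 895 RPM in the fractions in the same order, against 224, 34.5 and 21.9 RPM in milk. Milk 1 again stood above the other milk libraries and above 12k and 35k.

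Over the 4 fractions together these differences did not pass the threshold, and 12k and 35k lay within the milk range. The log2 fold changes were 2.54 (SE 0.98) for GAAAAAGTCA, 2.66 (SE 1.02) for AGAGGGGGAC and 3.08 (SE 1.10) for AGCGCCCGGC, with edgeR adjusted p of 0.193, 0.191 and 0.165. The size of these changes depended on single libraries. In the same order of sequences, the log2 fold changes were 3.85, 3.80 and 4.50 without milk 1, 1.58, 1.74 and 2.09 without milk 3, and 1.88, 1.92 and 2.18 without 70k, and none passed. With 12k and 35k left out together, a setting added after the values were seen, the edgeR adjusted p was 0.0140, 0.0107 and 0.00950. That setting called 28.5% of all tested sequences. These sequences are grouped here by being high in 70k and 100k, so these p-values give no separate support. Over 14 alternatives the adjusted p reached up to 0.980 for GAAAAAGTCA and 0.9995 for AGAGGGGGAC and AGCGCCCGGC. Other sequences with 70k and 100k above the rest were ACCCGGCGGC, with 911 RPM in 70k and 517 RPM in 100k against 98.3 ± 52.1 RPM in milk (SD, n = 3), and TCGCGGAGCC, with 801 and 415 RPM against 129.6 ± 82.9 RPM. The remaining 4 of the 10 were named after their values were seen. GGGGGTGGGC had 593 and 335 RPM in 70k and 100k against 98.1 ± 21.4 RPM in milk, and GTGGGCGGGC had 513 and 298 RPM against 114 ± 59.9 RPM. AGCGGTCGGC had 542 and 319.8 RPM against 64.4 ± 52.3 RPM, and CGTCGCGCGC had 443 and 184 RPM against 58.3 ± 52.9 RPM. Of the 10 sequences, 7 had a G+C of 80% or 90%, while GAAAAAGTCA had 30%. Over all 5259 sequences 13.4% had a G+C of 80% and 7.43% one of 90%. Abundant sequences had more G+C in general, with a mean of 68.4% between 20 and 100 RPM and 61.2% below 5 RPM.

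ATAGGGGGAC, which differs from AGAGGGGGAC by G2T, was high in 100k alone. It had 128 RPM there, 6.60 RPM in 70k, and 2 reads in 12k and 1 read in 35k. Milk 1 and 2 had 2 reads and 1 read, and milk 3 had 0, which allows up to 0.656 RPM. It had too few libraries with 10 reads to be tested.

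CTCTTAGCGG belongs to the most abundant fragment of the study. It is the 3′ part of GACTCTTAGCGG, a sequence near the 5′ end of 5.8S ribosomal RNA, an RNA of the large ribosomal subunit. That 12-nt sequence alone held 15.8% to 47.0% of the reads in the fractions and 37.7% to 53.7% in milk. CTCTTAGCGG had 319 RPM in 12k, 260.1 RPM in 35k, 1313 RPM in 70k and 675 RPM in 100k, against 394, 218 and 251 RPM in milk 1, 2 and 3. The 70k and 100k fractions lay above every milk library and 12k and 35k within the milk range (log2 fold change 1.09, SE 0.82, edgeR adjusted p = 0.518). Per 1000 longer reads with the same 3′ end, there were 0.442 in 12k, 0.432 in 35k, 2.00 in 70k and 0.875 in 100k, against 0.563, 0.308 and 0.331 in milk. So the 10-nt form was rare beside its longer forms in every library, and least rare in 70k.

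Among the sequences with a mean of at least 100 RPM, fewer were highest in 12k or 35k than in 70k. The 12k fraction had 2 of them and 35k had 3, against 10 in 70k and 0 in 100k. Over all 5259 sequences the order was another. There 654 were highest in 12k and 1265 in 35k, against 690 in 70k and 234 in 100k. GAGAGGTGAG had 495 RPM in 12k, 1724 RPM in 35k, 171 RPM in 70k and 84.1 RPM in 100k, against 172, 129 and 160.3 RPM in milk (log2 fold change 1.74, SE 0.95, edgeR adjusted p = 0.350). The 35k value stood 3.48 times above the next library. AGGGACGGCC, named after its values were seen, had 283, 426, 38.5 and 12.9 RPM in 12k, 35k, 70k and 100k, against 23.3 ± 13.9 RPM in milk (SD, n = 3). It lay inside a more abundant longer sequence in all 7 libraries, whereas GAGAGGTGAG did so in 1.

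Several sequences had hardly any reads in milk. ATCTCCGACT had 143 reads in 12k, 262 in 35k, 29 in 70k and 39 in 100k, against 0, 4 and 5 reads in milk 1, 2 and 3. A count of 0 in milk 1 allows up to 1.81 RPM, and the fractions had 61.9, 102, 16.0 and 20.1 RPM. AAGCGTGGGG had 55, 402, 38 and 30 reads in 12k, 35k, 70k and 100k, against 4, 0 and 6 in milk. AGGGCAGGGC had 220, 566, 39 and 19 reads against 8, 8 and 7, and GGGCGCGGGC had 186, 324, 17 and 12 reads against 6, 4 and 2. In all of these the 35k fraction was highest. The edgeR adjusted p was 0.0850 for ATCTCCGACT, 0.0869 for AAGCGTGGGG and AGGGCAGGGC, and 0.0877 for GGGCGCGGGC, and DESeq2 gave 0.000313, 0.00103, 0.000905 and 0.00151. Over 11 alternatives the adjusted p reached up to 0.410 for the first 3 and 0.425 for GGGCGCGGGC. GGGGACTGCC, also among the sequences furthest above milk in 70k, had 178 RPM there and 103 RPM in 100k, against 14.3 ± 6.10 RPM in milk (edgeR adjusted p = 0.199).

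On the milk side the leading sequence was CCTCTGTCCA. It had 272 RPM in 12k, 291 RPM in 35k, 32.5 RPM in 70k and 64.5 RPM in 100k, against 523, 1071 and 722 RPM in milk 1, 2 and 3 (log2 fold change -2.38, SE 0.87, edgeR adjusted p = 0.174). All fractions lay below all milk libraries. TTTAACAATA had 40.3, 42.2, 9.35 and 12.4 RPM in the fractions against 226, 406 and 272 RPM in milk, again all fractions below. Its log2 fold change was -3.67 (SE 0.90), with an edgeR adjusted p of 0.0850. DESeq2 gave an adjusted p of 0.00256, and the highest adjusted p over 14 alternatives was 0.410. TTTAACAATA was also named for standing furthest below milk in 12k, 35k and 70k, so these p-values give no separate support. CCTCCATCCA, which differs from CCTCTGTCCA by T5C and G6A, had 116, 46.1, 3.30 and 2.06 RPM in the fractions against 107, 215 and 191 RPM in milk, so that 12k lay within the milk range (edgeR adjusted p = 0.315).

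A relative, CCTCTGTCTG, was named after its values were seen. It had 126, 146, 23.1 and 28.4 RPM in the fractions against 249.6, 403 and 348 RPM in milk. GGGAGCGGCC had 11.7, 73.0, 7.15 and 3.61 RPM against 94.7, 106 and 74.4 RPM, all fractions below milk (edgeR adjusted p = 0.258). GGAGGGGAAG had 22.5, 60.5, 12.1 and 37.1 RPM against 79.0, 159 and 168 RPM, likewise below (edgeR adjusted p = 0.204). AAGAGGTCCC had 162 RPM in 12k, 91.0 RPM in 35k and 8.25 RPM in 70k, against 76.6, 166 and 136 RPM in milk, and a single read in 100k (edgeR adjusted p = 0.639). For it 12k and 35k lay within the milk range.

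Fragments of transfer RNA, the adaptors that bring amino acids to the ribosome, were among the sequences furthest below milk, ACGTTGGGCG in 70k and 100k and ACGAGGTGGC in 35k. ACGTTGGGCG of lysine tRNA had 42.0 RPM in 12k, 82.4 RPM in 35k and 3.85 RPM in 70k, against 74.8, 143 and 116 RPM in milk 1, 2 and 3. The 100k fraction had 0 reads, which allows up to 1.55 RPM. Longer reads that start with the same 10 bases were far more common, and the 10-nt form per 1000 of them was 14.4 in 12k, 11.9 in 35k and 11.5 in 70k, against 12.5, 14.4 and 13.7 in milk. Over these 6 libraries the level thus spanned 3.85 to 143 RPM and the ratio 11.5 to 14.4, where the 70k value rests on 7 reads. ACGAGGTGGC, at the 5′ end of serine tRNA, had 48.9 RPM in 12k, 5.86 RPM in 35k, 6.05 RPM in 70k and 3 reads in 100k, against 53.7, 186 and 128 RPM in milk (edgeR adjusted p = 0.165). Its ratio was less even. Per 1000 longer reads with the same 3′ end it had 107, 15.7, 162 and 63.8 in 12k, 35k, 70k and 100k. In milk 1, 2 and 3 these were 43.4, 59.4 and 40.4. The 70k and 100k ratios rest on 11 and 3 reads. For ACGTTGGGCG the edgeR adjusted p was 0.370.

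The ratio also varied less than the level for AGCGCCCGGC, whose level spanned 21.9 to 1643 RPM. Its 10-nt form per 1000 longer reads with the same 5′ end was 890.1 in 12k, 1274 in 35k, 863 in 70k and 846 in 100k, against 867, 855 and 641 in milk 1, 2 and 3. The order was another for GCCCTGTAAT of 18S ribosomal RNA, the RNA of the small ribosomal subunit, which was named after its values were seen. Per 1000 longer reads with the same 3′ end it had 114, 159, 26.9 and 43.2 in 12k, 35k, 70k and 100k, against 120.3, 128 and 141 in milk. There 70k and 100k lay below all other libraries.

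The next measure was containment, that is, whether a 10-nt sequence was an exact stretch of a longer sequence of 11 to 15 nt with more reads in the same library. In every library where they occurred, 1027 of the 5259 sequences (19.5%) were contained. Another 1616 (30.7%) were contained in some libraries, and 2616 (49.7%) in none. Of the sequences present, 43.5% were contained in 12k, 44.1% in 35k, 51.5% in 70k and 49.6% in 100k, against 41.6%, 39.9% and 37.5% in milk 1, 2 and 3. All fractions lay above all milk libraries. This order was lost when a longer sequence with at least 10 times the reads was asked for, with 9.22% to 14.1% in the fractions and 12.6% to 16.3% in milk. It was also lost among sequences of at least 100 reads, of which 41.4% to 51.9% were contained in the fractions and 49.8% to 51.5% in milk. Of the 1048576 possible 10-base words, on average 1.90% to 2.67% in a fraction and 1.62% to 1.98% in a milk library lay inside longer sequences above the same count.

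Weighted by reads, containment had another order. Contained sequences held 15.5% of the reads in 12k, 21.4% in 35k, 33.3% in 70k and 26.3% in 100k, against 29.3%, 33.5% and 29.6% in milk. The groups overlapped through 70k, which lay within the milk range. Under the stricter demand for 10 times the reads, contained reads came to 3.10%, 3.15%, 7.57% and 5.40% in the fractions and 7.10%, 6.83% and 7.70% in milk. Of sequences of 11 nt, 46.3% to 53.7% of the reads in the fractions and 49.1% to 54.0% in milk lay inside more abundant sequences of 12 to 15 nt, fewer lengths than were open to the 10-nt sequences.

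The most abundant 10-nt sequences were mostly not contained. The measure itself leans that way, because a longer sequence with more reads is harder to find for an abundant one. Of the 21 with a mean of at least 100 RPM, 13 were contained in no library, 5 in all 7 and 3 in some. The 13 include both sequences of the leading pair, GAAAAAGTCA, AGAGGGGGAC, CCTCTGTCCA and TTTAACAATA. The 5 include CTCTTAGCGG, GCCCTGTAAT and AGGGACGGCC. Between 5 and 20 RPM, 14.5% of 475 sequences were contained in no library, between 20 and 100 RPM 23.2% of 125, and below 5 RPM 54.0% of 4638.

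Contained sequences more often shared the 3′ end of the longer one. The 10-nt sequence formed its 3′ end in 46.2% to 52.8% of the cases in the fractions and 51.5% to 53.6% in milk. It formed the 5′ end in 22.1% to 27.5% and 20.9% to 24.0%, and lay inside in the rest. Since longer sequences offer more inner positions, the cases with a longer sequence of 11 nt were also counted, where only the ends are possible. There the 3′ end was shared in 66.7%, 61.8%, 60.2% and 63.9% of the cases in 12k, 35k, 70k and 100k, against 66.5%, 65.3% and 68.4% in milk. Sequences of 11 nt inside sequences of 12 to 15 nt leaned the same way. They formed the 3′ end in 52.1% to 55.1% of the cases in the fractions and 55.0% to 58.9% in milk.

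Base composition was weighted by reads unless stated. G+C made up 71.7% of the bases in 12k, 70.4% in 35k, 68.4% in 70k and 68.6% in 100k, against 61.8%, 63.1% and 63.4% in milk 1, 2 and 3. All fractions lay above all milk libraries. The same held when each sequence counted once, with 64.5% to 66.5% in the fractions and 62.2% to 62.9% in milk, and without the 2 leading sequences of each library, with 66.1% to 72.0% and 62.1% to 62.9%. For sequences of 11 nt the groups overlapped, with 62.6% to 65.5% in the fractions and 61.1% to 63.7% in milk. Counted once each, sequences of 11 nt also had no overlap, with 62.5% to 64.8% in the fractions and 61.4% to 62.1% in milk. Over the 5259 sequences 60% G+C was the most common value, with 1122 of them, and 146 consisted of G and C alone.

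G led at the first base in every library. It began 78.1% of the reads in 12k, 70.3% in 35k, 46.7% in 70k and 54.5% in 100k, against 39.9%, 35.5% and 38.3% in milk. Without the 2 leading sequences of each library it began 44.8%, 43.6%, 36.0% and 42.1%, against 34.9%, 35.7% and 37.5%, so that 70k then lay within the milk range. C began 8.85%, 11.7%, 15.8% and 12.7% of the reads in the fractions and 24.7%, 33.6% and 32.0% in milk, with no overlap between the groups. Without the leading sequences these were 22.3%, 22.1%, 19.0% and 16.2%, against 26.7%, 31.2% and 30.4%, still without overlap. Counted once each, C began 22.6% to 24.3% of the sequences in the fractions and 26.9% to 28.0% in milk. A began 9.21%, 11.9%, 27.0% and 24.6% against 20.2%, 18.3% and 16.9%, and T began 3.87%, 6.20%, 10.5% and 8.21% against 15.3%, 12.6% and 12.9%.

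Counted once each, 33.2% of the 5259 sequences began with G, 26.2% with C, 20.8% with A and 19.7% with T. At the last base, G closed 73.3% and 65.0% of the reads in 12k and 35k, where both sequences of the pair end in GG. It closed 31.5% in 70k and 39.6% in 100k, against 31.4%, 30.0% and 33.0% in milk. A closed 6.33%, 6.85%, 14.2% and 13.6% of the reads in 12k, 35k, 70k and 100k, against 23.2%, 23.3% and 20.9% in milk, again without overlap. Without the 2 leading sequences of each library A closed 5.43% to 15.9% in the fractions and 18.4% to 21.5% in milk.

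Near copies were looked for, since errors in sequencing give sequences 1 base away from abundant ones. Those with a neighbour at 1 base of difference and at least 100 times the reads in the same library made up 4.33% to 5.08% of the sequences present in the fractions and 3.57% to 5.76% in milk. They held 1.14% to 2.12% of the reads in the fractions and 0.494% to 0.708% in milk.

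Sequence by sequence, the test needed at least 10 reads in at least 3 libraries. It could be run on 5681 sequences of all lengths, and 732 of the 5259 sequences of 10 nt (13.9%) were among them. Sequences that passed through the libraries where they are high had to differ, so the following counts are a description. edgeR's quasi-likelihood test called 0 of the 732 at an adjusted p of 0.05, where 0.0352% of all tested sequences were called. At an unadjusted p under 0.05 it had 132 (18.0%), 84 higher and 48 lower, where the background was 17.5%. DESeq2 called 56, 37 higher and 19 lower, where 7.27% of all tested sequences were called, and limma called 6, where the background was 0.581%. With 12k and 35k left out, edgeR called 135 of the 458 that could be tested, 39 higher and 96 lower, where the background was 28.5%. With 70k and 100k left out it called 8 of 494, all higher, where the background was 1.08%. Both were added after the values were seen. The median log2 fold change was 0.13 over the 732 and -0.18 over all tested sequences, and without TMM factors these were 0.21 and -0.06.

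All 4 fractions lay above all milk libraries for 56 of the 732 (background 7.53%) and below them for 73 (background 10.2%). Taken singly, a fraction was set against the highest and the lowest milk library with a minimum difference of 4-fold and counts under 3 set to 3 reads. In 12k, 37 of the 732 lay above (background 5.12%) and 53 below (background 6.42%). In 35k, 65 lay above (background 8.64%) and 37 below (background 5.91%). In 70k these were 82 (background 10.6%) and 97 (background 12.2%), and in 100k 39 (background 6.44%) and 99 (background 14.6%). The 10-nt sequences thus stood close to the share of all tested sequences in each fraction. Scaled to the 10-nt reads of each library, a choice made after the values were seen, 12k had 22 above (background 2.69%) and 98 below (background 13.5%), and 35k had 27 (background 3.91%) and 83 (background 12.3%). Scaled in that way 70k had 39 (background 4.82%) and 152 (background 21.0%), and 100k had 29 (background 4.93%) and 125 (background 19.3%). The backgrounds are shares of all 5681 tested sequences under the same scaling.

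The milk libraries were not alike in the 10-nt range. Over the 732 sequences Spearman's rho was 0.645 between milk 2 and milk 3, 0.495 between milk 1 and milk 2 and 0.364 between milk 1 and milk 3. Against 70k, milk 1 had a rho of 0.249, and milk 2 and milk 3 had -0.148 and -0.0857. GTTTGTTGAA and ATTTGTTGAA, named after their values were seen, differ by G1A. After that first base both are the 9-nt sequence TTTGTTGAA. It had 11189 reads, against 810 and 833 for the 10-nt forms. GTTTGTTGAA had 25.1, 21.5, 1.65 and 4.13 RPM in 12k, 35k, 70k and 100k, against 304, 29.6 and 19.9 RPM in milk 1, 2 and 3. ATTTGTTGAA had 22.1, 23.0, 2.20 and 3.09 RPM in the fractions, against 308, 36.8 and 19.5 RPM in milk. Milk 1 thus stood 10.3 times above the next library for the first and 8.37 times for the second. Milk 1 has the smallest total of reads, and the part of depth in these differences was not tested.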

How the data were processed

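The deposited lists hold, per the file headers, a read count and an RPM (reads per 1000000 in the window of 8 to 15 nt) for every sequence. The deposited RPM differed from count over file total, scaled likewise, by at most 0.0005. In milk 1 the deposited RPM column was listed as a score, only because its closing total stands in that column, and its counts were used like those of the other libraries. How reads were trimmed, collapsed and filtered is not given in the sources used here, nor an aligner or build. Each closing total without a sequence was dropped (1 per library), and RPM was recomputed from the counts. File totals cover this window alone, so full library depth is unknown.

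Members and named sequences were chosen with earlier results of these data known. Named sequences were the 10 highest by mean RPM, the 3 leading in each library, called ones, and the 3 furthest above and below milk in each fraction among those of at least 100 RPM. Others are marked as named after their values were seen. Of the members, 2 contain an undetermined base.

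The main test was edgeR 4.0.16 (R 4.3.3) with TMM factors, quasi-likelihood and Benjamini-Hochberg adjustment over all 5681 tested sequences, 4 fractions against 3 milk libraries. It was tested on simulated data. Alternatives were DESeq2 1.42.0, limma 3.58.1 with a pseudocount of 1 RPM before taking log2, other minimums, no TMM and left-out libraries. Exact permutation tests used scipy 1.17.1. Containment, base composition and single-fraction counts had no test.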

Additional observations from a re-analysis of the deposited data

Results flagged for a closer look

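Sequences of 10 nt with fewer than 10 reads in every library were outside the main sequence-by-sequence test, containment and the base composition given here. They were counted in the share of reads of 10 nt and in the shares of the 10-nt reads. They held 20.3% of the 10-nt reads in 70k and 21.9% in 100k, above the highest milk library, milk 1 with 14.6%. In 12k and 35k they held 4.95% and 3.32%, and in milk 2 and milk 3 4.57% and 4.14%. The 3 libraries with these higher shares are also the 3 with the smallest read totals, and the part of depth was not tested. No group of this series has 4 or more samples, so no sample was compared with its group for standing apart.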

How the results depend on the processing

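No paired analysis was possible because the fractions carry no replicate numbers and each is a single library. The difference in the share of 10-nt reads kept its direction under every alternative but one: with distinct sequences in place of reads it was -0.0517 points. Without the 10 most abundant sequences it was 3.34 points, and without 1 library each 1.62 to 2.43 points. The 10-nt calls of edgeR were 0 when any 1 library was left out. With 50 reads in 3 libraries they were 2 of 148 (background 2.11%). Of the 732, limma called 6 (background 0.581%) and DESeq2 called 56 (background 7.27%). Added after the data were seen, leaving out 12k and 35k together gave 135 calls of 458 (background 28.5%), and leaving out 70k and 100k together gave 8 of 494 (background 1.08%). The calls over all lengths, 2 in the main test, were 0 without TMM, 0 with 1 read in 2 libraries, 0 when any 1 library was left out, 25 with 50 reads, 33 with limma and 413 with DESeq2. They were 1049 without 12k and 35k and 45 without 70k and 100k. The log2 fold change turned for AAGAGGTCCC without 70k and 100k, to 0.33, for GAGAGGTGAG without 12k and 35k, to -0.32, and for CTCTTAGCGG with 1 read in 2 libraries, to -0.074. The causes were not tested.

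Contained sequences averaged 47.2% in fractions and 39.7% in milk. Asking for 10 times the reads gave 11.8% and 14.3%, longer sequences of 11 and 12 nt only gave 33.5% and 26.8%, and sequences of at least 100 reads gave 48.2% and 50.6%, so that the order turned there and with 10 times the reads. Contained reads, 24.1% and 30.8%, became 4.81% and 7.21% with 10 times the reads, and 23.0% in milk with 11 and 12 nt. Counted once, fractions had 65.4% G+C, 36.8% first G, 23.4% first C and 18.2% first T, and milk 34.0% first G and 19.2% first T. Without the 2 leading sequences of each library the fractions had 41.6% first G, 27.3% first A, 19.9% first C and 11.1% first T. Scaled to 10-nt reads, the counts above and below milk were 22 and 98 in 12k, 27 and 83 in 35k, and 39 and 152 in 70k. Low counts limit most sequences, since 4638 of 5259 averaged under 5 RPM.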
